A study of Mus musculus with 31 samples.

Results

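The IL-6 family cytokines and the Stat3 axis were followed here through 9 genes of the 46072 listed in each library. They were chosen by name, with earlier results of these data known. They were the ligand genes Il6, Lif, Il11 and Osm, the receptor genes Osmr, Il6ra and Il6st, the transcription factor gene Stat3 and the feedback inhibitor gene Socs3. All 9 genes were measured in all 31 libraries. Mean expression over the libraries of a model was at least 0.5 TPM, the share of transcripts that a gene holds scaled to the same total in every library, for 9 of the 9 genes in MC-38 tumors and for 8 in RM-9 tumors, where Il6 was the exception and was tested all the same.

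The libraries were made from messenger RNA of whole tumors, 1 per mouse, grown under the skin of the right hind leg of young male C57BL/6 mice (C57BL/6J in the methods of the study) labelled wild type. RM-9 is a mouse prostate cancer line and MC-38 a mouse colon cancer line, and both are labelled adenocarcinoma. In RM-9 tumors there were 4 control mice, 4 mice at RT 3 h, 4 at RT 12 h and 3 at RT 24 h, and in MC-38 tumors 4 mice in each of these groups. Control mice had no treatment and carried the 3 h time point, and the RT mice received a single dose of 15 Gy to the tumor. The 3 RT groups of a model shared the same 4 control mice, so a change at 12 h or 24 h and a change with time without RT cannot be told apart. Each model was 1 cell line. Whether the models were sequenced together is not stated, so the model and a sequencing batch cannot be told apart. In whole tumors, a lower level from fewer cells of a type and from less RNA per cell cannot be told apart.

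Cytokines of the IL-6 family signal through receptor complexes that share the subunit gp130, encoded by Il6st. IL-6 and IL-11 bind first to their own receptor chains, and oncostatin M, encoded by Osm, binds a receptor made of gp130 and the product of Osmr. Bound complexes activate JAK kinases, which phosphorylate STAT3, and STAT3 moves to the nucleus and raises the transcription of its target genes, among them Socs3, whose protein then blocks the receptor and its kinases. Phosphorylation was not measured here, and mRNA levels do not report it.

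Of the 9 genes, 4 lie on mouse chromosome 11. Osm (chr11:4236420-4241026, + strand) and Lif (chr11:4257557-4272514, + strand) are neighbours in the same orientation with 16530 bases between them. Stat3 (chr11:100885098-100939540, - strand) and Socs3 (chr11:117966079-117970047, - strand) lie on the far part of the same chromosome. Il6 lies at chr5:30013114-30019981 (+ strand), Il11 at chr7:4773055-4782857 (- strand), Osmr at chr15:6813577-6874969 (- strand), Il6ra at chr3:89864059-89913196 (- strand) and Il6st at chr13:112464070-112510086 (+ strand). These are the positions in the deposited tables, and they match GENCODE M21 on GRCm38 exactly for 8 of the 9 genes.

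RefSeq promoter windows on GRCm38.p6 matched 8 of the 9 genes, with 9 windows in all, and the 250 bases before each start site were searched on both strands for 4 motifs. The motifs were TTCNNNGAA, which STAT factors bind, TGANTCA, which AP-1 binds, the kB motif, which NF-kB binds, and TTGCNNAA, which C/EBP factors bind. Of all 32851 such windows, 7.02% held the STAT motif, 6.75% the AP-1 motif, 1.21% the kB motif and 9.56% the C/EBP motif. An upstream window each of the ligand genes Il6, Lif and Il11 is shown because these genes rose after RT in MC-38 tumors and the window held an AP-1 motif. Picked in this way, the windows do not tie the motif to the rise. The other Il11 window held none of the 4 motifs, nor did the windows of Osmr and Stat3, which also rose. All 250 bases of the Osmr window lay in annotated exons of Osmr itself. Of the 250 bases of that other Il11 window, 173 lay in an annotated exon of some gene. The lack of motifs in these windows therefore says little about sequence upstream of the gene. The Socs3 window held no AP-1 motif, and Osm had no window. Capitals mark motif matches, none of which overlapped another, and the Lif window ends before its first annotated exon.
Il6, chr5:30012864-30013113, + strand: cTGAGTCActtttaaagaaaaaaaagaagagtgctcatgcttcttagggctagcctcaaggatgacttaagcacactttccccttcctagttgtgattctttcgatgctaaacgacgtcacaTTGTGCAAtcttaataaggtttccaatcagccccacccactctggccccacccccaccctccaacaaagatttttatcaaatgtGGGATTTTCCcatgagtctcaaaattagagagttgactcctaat
Lif, chr11:4257318-4257556, + strand: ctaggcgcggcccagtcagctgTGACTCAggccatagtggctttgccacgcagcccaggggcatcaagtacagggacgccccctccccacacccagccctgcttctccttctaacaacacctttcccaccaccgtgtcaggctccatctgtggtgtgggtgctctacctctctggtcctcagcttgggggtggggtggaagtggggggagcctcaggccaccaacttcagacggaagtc
Il11, upstream of an inner start site, chr7:4778142-4778391, - strand: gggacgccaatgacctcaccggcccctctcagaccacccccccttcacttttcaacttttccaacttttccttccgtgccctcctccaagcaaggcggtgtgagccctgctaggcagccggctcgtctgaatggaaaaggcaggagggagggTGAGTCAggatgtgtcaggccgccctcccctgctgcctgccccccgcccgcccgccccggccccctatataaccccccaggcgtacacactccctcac
The Il6 window held 1 AP-1, 1 C/EBP and 1 kB match, the last starting 44 bases before the start site. AP-1 matches were in 3 of the 9 windows of the family. The STAT motif was in 1 window, that of Socs3, and is shown with its flanks because Socs3 is the feedback gene of the pathway. This match started 154 bases before an inner start site, within the annotated span of Socs3 but in no annotated exon. Of the 250 bases of the Socs3 window, 77 lay in exons of the gene.
Socs3, STAT match at chr11:117969512-117969520, - strand: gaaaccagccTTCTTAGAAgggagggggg
A match is a stretch of letters and was not tested for binding.

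Depth was about 21400000 to 29400000 reads per library. At that depth the lowest gene, Il6 in RM-9 tumors, rested on roughly 12 to 42 reads per library, and Il6 in MC-38 tumors on roughly 57 to 413. Each of the other genes had roughly 19 reads or more in every library. TPM is a share of all transcripts in a library, and the mitochondrial gene mt-Nd4l alone held 35.6% to 43.5% of it in RM-9 and 12.9% to 29.6% in MC-38 tumors. The median gene moved on this scale, by 0.06, -0.19 and -0.04 (log2) at 3, 12 and 24 h in RM-9 tumors and by 0.19, 0.33 and 0.22 in MC-38 tumors. In MC-38 tumors at 12 h, 4469 genes were higher and 406 lower on TPM, against 995 and 1544 after median-ratio scaling, which centres the median gene. MC-38 control mouse 1 stood apart, with skeletal muscle markers summing to 10086 TPM where the lowest control mouse had 18.6. In MC-38 tumors the epithelial markers Krt8, Krt18, Krt19 and Epcam had group means of at most 0.203 TPM, while Krt8 alone had group means of 640.3 to 910.1 TPM in RM-9 tumors.

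In untreated tumors, 6 of the 9 genes were higher in MC-38 than in RM-9 tumors and 2 were lower, whereas 64.7% of all 15358 genes tested were higher and 10.7% lower. Higher and lower calls over all genes numbered 9943 and 1641 on TPM and 5231 and 4842 after median-ratio scaling, which left 4 of the 9 genes higher and 3 lower. In 6 of the 9 genes every MC-38 control mouse was above every RM-9 control mouse, as in 50.9% of all genes. The ligand pair of Osm and its receptor gene Osmr differed most upward. Osm measured 3.5, 4.05, 3.32 and 3.27 TPM in the MC-38 control mice and 0.924, 1.06, 1.02 and 0.893 in the RM-9 control mice. Osmr measured 6.81, 7.71, 9.41 and 7.10 TPM in MC-38 and 2.44, 1.82, 2.24 and 2.43 in RM-9. All MC-38 mice stood above all RM-9 mice for both genes. The log2 difference of log2(TPM + 0.5) was 1.45 ± 0.16 (SE) for Osm and 1.59 ± 0.14 for Osmr (limma adjusted p = 6.89e-09 and 1.50e-10). Both remained higher after median-ratio scaling, by 0.94 and 1.00.

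Il6, the founding cytokine of the family, was low in both models. It measured 1.34 ± 0.323 TPM (SD, n = 4) in MC-38 and 0.435 ± 0.102 TPM (n = 4) in RM-9 control tumors, without overlap (log2 difference 0.97 ± 0.18 SE, limma adjusted p = 2.89e-05). Stat3 measured 42.8 ± 5.58 TPM in MC-38 and 20.5 ± 1.72 TPM in RM-9 control tumors, again without overlap (log2 difference 1.04 ± 0.14, limma adjusted p = 2.63e-07). Lif, a cytokine that acts through its own receptor chain and gp130, and Socs3 were higher in MC-38 by 0.72 and 0.64 on the log2 scale, close to the 0.63 of the median gene. After median-ratio scaling Lif differed by 0.09 and Socs3 by -0.02, and neither passed the test, nor did they on TPM without mitochondrial genes (limma adjusted p = 0.0623 and 0.204).

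Il11, a cytokine of stromal and epithelial tissue, ran the other way. It measured 2.39, 3.23, 3.30 and 1.09 TPM in RM-9 control mice and 0.939, 1.32, 1.01 and 0.468 TPM in MC-38 control mice. RM-9 mouse 4 fell within the MC-38 range, and the other RM-9 mice stood above it. The log2 difference was -1.02 ± 0.25 (SE; limma adjusted p = 0.000529) and grew to -1.52 after median-ratio scaling. With the replicate number as a block, the fit did not compare the means of the control groups. Its value of -0.61 (limma adjusted p = 0.0992) therefore cannot be set against this difference. Il6ra, which encodes the ligand-binding chain for IL-6, was lower in MC-38 by 0.50 on the log2 scale (log2 difference -0.50 ± 0.20, limma adjusted p = 0.0276), with overlapping mice. That call was lost without RM-9 control mouse 3 or 4 or MC-38 control mouse 1 or 2 (adjusted p = 0.0657 to 0.117) and was stronger after median-ratio scaling (-1.12, adjusted p = 1.32e-06). Il6st measured 12.8 ± 2.05 TPM in MC-38 and 13.1 ± 1.34 TPM in RM-9 control tumors and did not pass on TPM, but was lower in MC-38 by median-ratio scaling (-0.68, adjusted p = 0.000126).

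Ranked by TPM, the ligand genes stood in the order Lif, Il11, Osm and Il6 in RM-9 control tumors. Lif was above the other ligand genes in every RM-9 control mouse, Il11 was above Osm with mouse 4, at 1.09 TPM, close to the highest Osm value of 1.06, and Il6 was below all. In MC-38 control tumors the order was Lif, Osm, Il6 and Il11, with Il6 and Il11 overlapping at 0.932 to 1.66 and 0.468 to 1.32 TPM. Among the partner genes, Stat3, Socs3 and Il6st were the most abundant in both models.

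**Figure D1:**
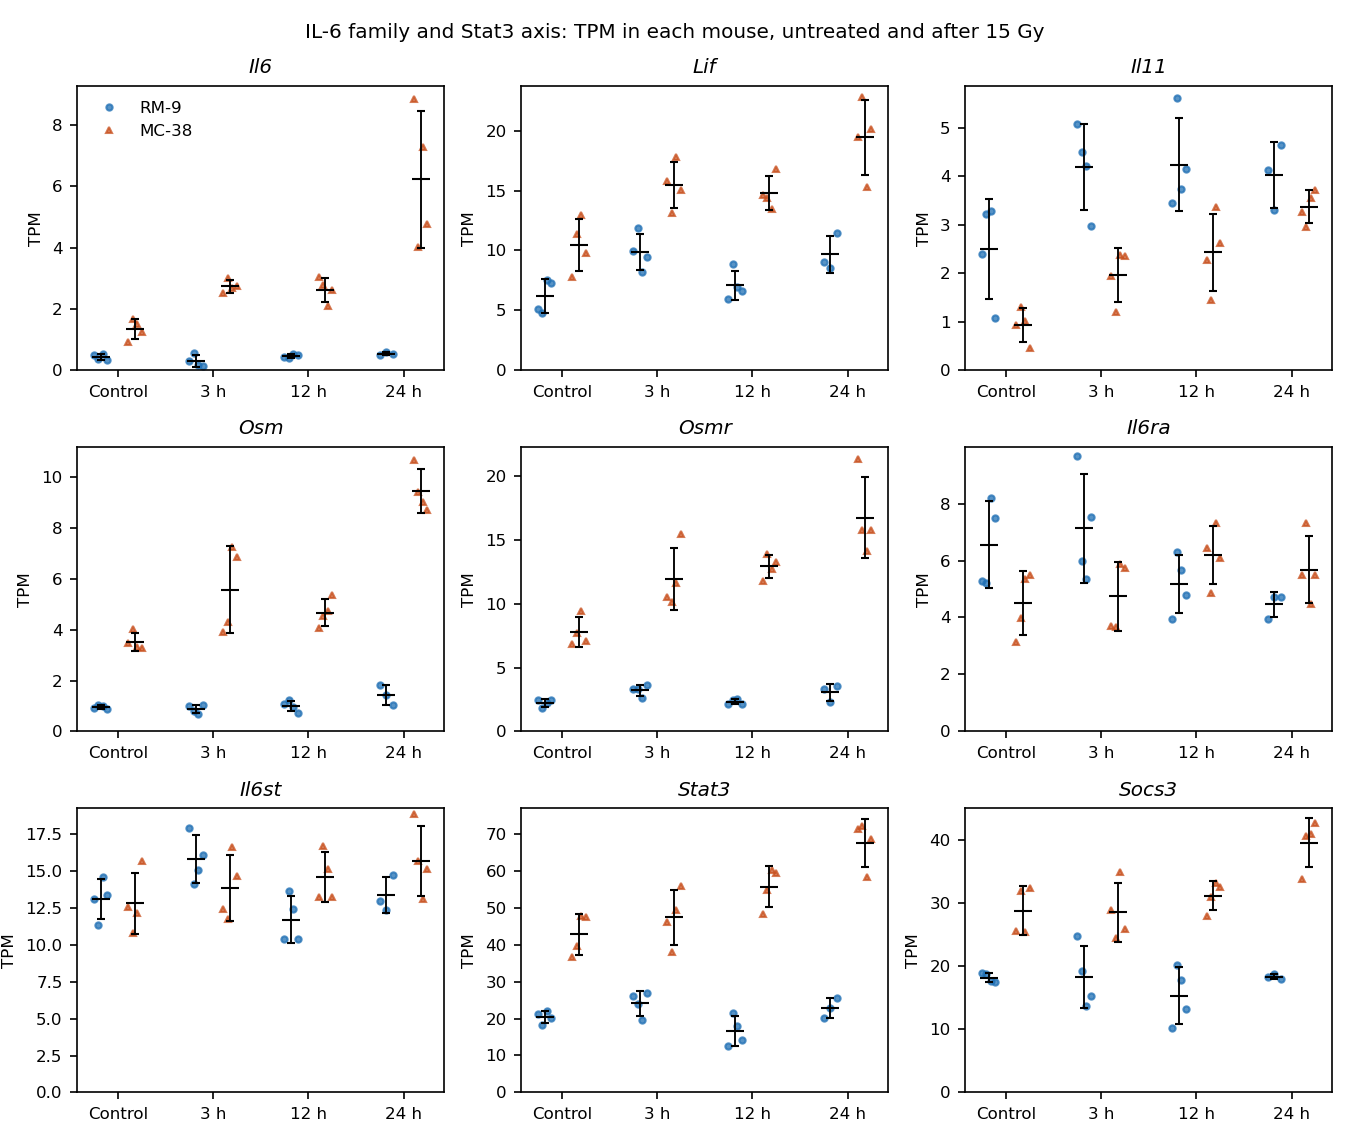
Expression (TPM, vertical axis from 0) of the 9 genes in each mouse of the control, RT 3 h, RT 12 h and RT 24 h groups (horizontal axis); circles are RM-9 and triangles MC-38 mice, and black bars give mean ± SD. Il6 in MC-38 tumors lay between 4.03 and 8.82 TPM at 24 h, above all control mice at 0.932 to 1.66, while Il6 in RM-9 tumors stayed between 0.159 and 0.596 TPM in all groups.

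RT was followed by higher mRNA of most of the axis in MC-38 tumors at 24 h. All 4 ligand genes, Osmr, Stat3 and Socs3 rose, 7 of the 9 genes, against 13.2% of all 15698 genes tested, and Il6ra and Il6st did not pass. In these 7 genes every RT 24 h mouse stood above every control mouse, as did 14.8% of all genes. The median log2 difference was 0.87 over the 9 genes and 0.22 over all genes. Over all genes 2073 were higher and 86 lower on TPM, against 1232 and 1280 after median-ratio scaling.

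Il6 changed most. It measured 0.932, 1.66, 1.53 and 1.25 TPM in the MC-38 control mice and 8.82, 4.03, 7.26 and 4.75 TPM at 24 h. The lowest mouse at 24 h was above the highest control mouse and also above all mice at 3 h and 12 h. The ratio of means was 4.63, and the log2 difference of log2(TPM + 0.5) was 1.82 ± 0.21 (SE, limma adjusted p = 0.000287).

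Il11 measured 0.939, 1.32, 1.01 and 0.468 TPM in the control mice and 3.27, 2.96, 3.56 and 3.72 TPM at 24 h. All 4 mice at 24 h lay within a narrow band above the control mice. The ratio of means was 3.62 and the log2 difference 1.47 ± 0.24 (SE, limma adjusted p = 0.00137).

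Osm, a cytokine made mainly by myeloid and T cells, measured 3.5, 4.05, 3.32 and 3.27 TPM in the control mice and 10.7, 9.42, 9.03 and 8.71 TPM at 24 h. No mouse at 3 h or 12 h reached the lowest mouse at 24 h. The ratio of means was 2.68 and the log2 difference 1.30 ± 0.17 (SE, limma adjusted p = 0.000443).

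Lif was the most abundant of the 4 ligand genes in MC-38 tumors, with 7.80, 11.4, 12.9 and 9.75 TPM in the control mice and 19.5, 22.8, 15.3 and 20.1 TPM at 24 h. The groups did not overlap, but mouse 3 at 24 h lay within the range seen at 3 h. The log2 difference was 0.87 ± 0.16 (SE, limma adjusted p = 0.00269). In a fit of only these 8 mice the call was lost (adjusted p = 0.0506).

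Osmr was the receptor gene that rose. It measured 6.81, 7.71, 9.41 and 7.10 TPM in the control mice and 21.3, 15.8, 14.1 and 15.8 TPM at 24 h. Mouse 1 was the highest, and all 4 stood above the control mice. The ratio of means was 2.16 and the log2 difference 1.06 ± 0.15 (SE, limma adjusted p = 0.000803). The shared subunit gene Il6st measured 12.8 ± 2.05 TPM (SD, n = 4) in control and 15.7 ± 2.37 TPM (n = 4) at 24 h, and Il6ra 4.50 ± 1.13 and 5.68 ± 1.18 TPM, with overlapping mice in both cases (limma adjusted p = 0.206 and 0.314).

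Stat3 measured 36.7, 39.6, 47.8 and 47.4 TPM in the control mice and 71.2, 72.1, 58.2 and 68.6 TPM at 24 h. Every mouse at 24 h lay above the control mice. The log2 difference was 0.65 ± 0.13 (SE, limma adjusted p = 0.00478). Socs3 measured 25.6, 32.0, 25.4 and 32.4 TPM in the control mice and 33.9, 40.7, 41.0 and 42.6 TPM at 24 h. Mouse 1 at 24 h was only slightly above the highest control mouse. The log2 difference was 0.45 ± 0.13 (SE, limma adjusted p = 0.0279).

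After median-ratio scaling 6 of the 7 calls held, with log2 differences of 1.62 for Il6, 1.28 for Il11, 1.06 for Osm, 0.80 for Osmr, 0.62 for Lif and 0.39 for Stat3. Socs3 fell to 0.19 (limma adjusted p = 0.338), and on TPM its call was also lost without control mouse 1 or RT 24 h mouse 2, 3 or 4 (adjusted p = 0.0572 to 0.0887) and in a fit of only the 8 mice compared (adjusted p = 0.123). Without control mouse 1, the mouse with the high muscle markers, the other 6 genes passed.

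**Figure D2:**
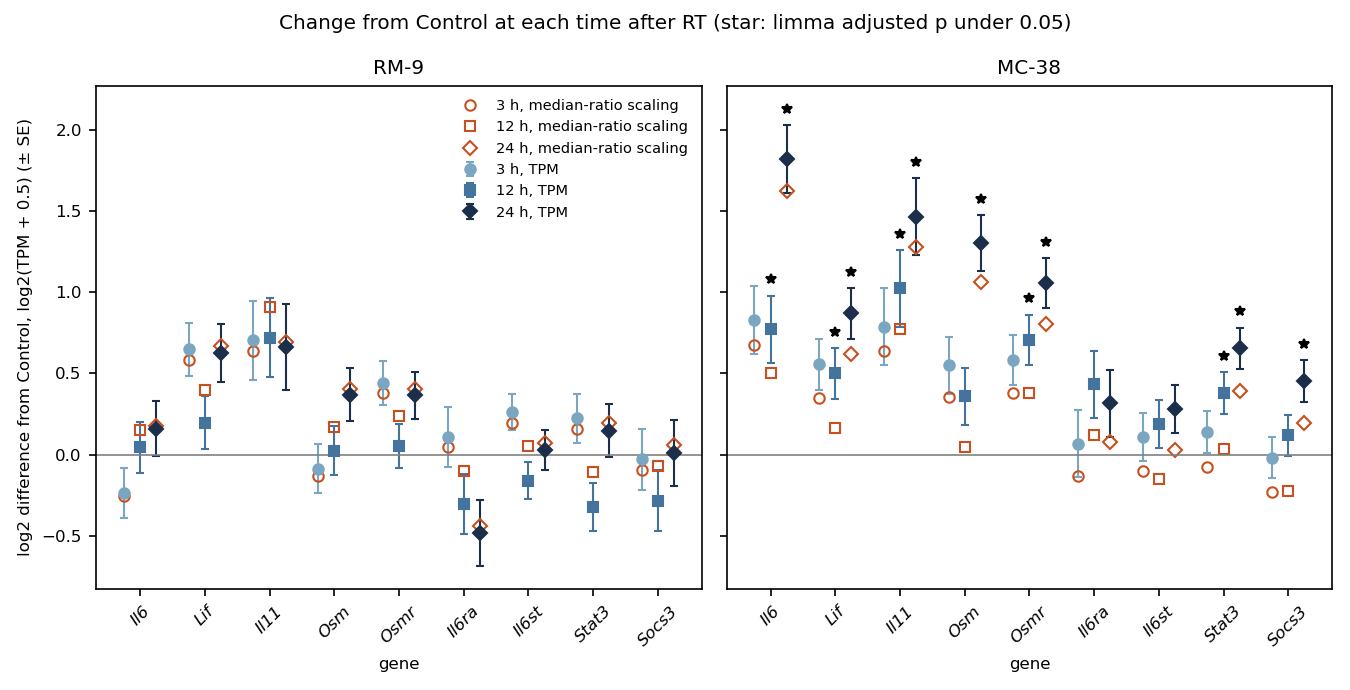
Difference from control on the log2(TPM + 0.5) scale (vertical axis, filled symbols, ± SE) for the 9 genes (horizontal axis) at 3, 12 and 24 h in RM-9 (left) and MC-38 (right) tumors, with the same differences after median-ratio scaling as open symbols and stars at limma adjusted p under 0.05 on TPM. In MC-38 tumors Il6 reached 1.82 at 24 h, and 7 genes carry a star there, beside 13.2% of all genes higher. No gene carries one in RM-9 tumors, beside 0.228%, 8.37% and 0% of all genes called at 3, 12 and 24 h.

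Some cell type markers also differed between the MC-38 control and RT 24 h groups. Summed neutrophil markers ranged from 12.0 to 26.4 TPM in control and from 21.5 to 38.0 TPM at 24 h, with 0 of 6 tested genes passing. Of these markers Camp was at 0 in every library and Ly6g in every MC-38 control and RT 24 h library. Summed T cell markers ranged from 16.3 to 24.9 TPM in control and from 8.02 to 15.2 TPM at 24 h, with 3 of 6 genes lower (4 after median-ratio scaling). Summed macrophage markers ranged from 830.9 to 1326 TPM in control and from 668.3 to 832.6 TPM at 24 h, with 1 of 8 genes lower (4 after median-ratio scaling). Summed endothelial markers ranged from 41.8 to 57.1 TPM in control and from 57.5 to 76.3 TPM at 24 h, with 2 of 6 genes higher (0 after median-ratio scaling, limma), and summed fibroblast markers from 484.7 to 808.6 and from 593.7 to 1106 TPM, with 0 of 7 passing. Epithelial markers, of which 1 of 6 was tested, had 0 calls by limma in MC-38 tumors. Skeletal muscle markers had 0 calls too, but varied widely between mice. Their median sum was 886.4 TPM in control and 744.8, 25.7 and 566.2 TPM at 3, 12 and 24 h. The p53 target genes, a sign of the response to RT, had 2, 4 and 3 of 8 genes higher at 3, 12 and 24 h. After median-ratio scaling 2, 2 and 3 of the 8 were higher, and 1 was lower at 24 h. Of all 15698 genes tested, 8, 4469 and 2073 were higher and 2, 406 and 86 lower on TPM at these times. The part of these markers in the rise of the IL-6 family genes was not tested.

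At 3 h in MC-38 tumors none of the 9 genes passed by limma, as against 0.0637% of all genes, and 5 of the 9 had an unadjusted p under 0.05, as had 3130 of all 15698 genes. The unadjusted differences were upward in Il6, Lif, Il11, Osm and Osmr. Il6 measured 2.52, 3.02, 2.68 and 2.74 TPM, and all 4 mice were above the control mice (log2 difference 0.83 ± 0.21 SE, limma adjusted p = 0.101). The groups also failed to overlap for Lif and Osmr, 3 genes in all, as in 7.2% of all genes. Without control mouse 3, Lif and Osmr passed (limma adjusted p = 0.0432 and 0.0426). Stat3 at 47.4 ± 7.43 TPM and Socs3 at 28.5 ± 4.64 TPM (SD, n = 4) overlapped with control.

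At 12 h in MC-38 tumors Il6, Lif, Il11, Osmr and Stat3 were higher on TPM, 5 of the 9 genes, beside 28.5% of all genes. Every RT 12 h mouse stood above every control mouse for 6 genes, these 5 and Osm, as for 34.5% of all genes. Il6 measured 3.04, 2.77, 2.10 and 2.60 TPM, a level that overlapped with 3 h and lay below 24 h. Il11 measured 2.28, 1.44, 3.38 and 2.63 TPM (log2 difference 1.02 ± 0.24 SE, limma adjusted p = 0.0126), and Osmr 11.8, 13.9, 12.7 and 13.3 TPM (0.71 ± 0.15, adjusted p = 0.0109). All of these mice lay above the control mice. Osm measured 4.08, 4.53, 4.75 and 5.37 TPM and did not pass (limma adjusted p = 0.112). The median gene had moved by 0.33 on TPM. Median-ratio scaling left 1 call, Il11 (0.77, limma adjusted p = 0.0347), and TPM without mitochondrial genes left 3. Leaving out single mice gave 2 to 5 calls, with 2 calls without control mouse 1 or RT 12 h mouse 2. Without either of these Il6 was lost (adjusted p = 0.0566 and 0.0538), and Lif was lost without 5 and Stat3 without 6 of the 8 mice (adjusted p up to 0.0879 and 0.112). At this time 5 of 8 macrophage and 4 of 6 T cell markers were lower (6 and 6 after median-ratio scaling), and their part was not tested.

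In RM-9 tumors none of the 9 genes passed at 3, 12 or 24 h by limma, beside 0.228%, 8.37% and 0% of all 14014 genes tested. At 12 h 10 of all genes were higher and 1163 lower on TPM, against 13 and 6 after median-ratio scaling. Unadjusted p was under 0.05 for 4, 2 and 5 of the 9 genes and for 3060, 4344 and 681 of all genes at these times. Lif measured 5.14, 4.77, 7.52 and 7.27 TPM in the control mice, 9.98, 11.9, 8.16 and 9.46 TPM at 3 h and 9.07, 8.58 and 11.5 TPM at 24 h. All mice at these times stood above the control mice, while the mice at 12 h, at 7.08 ± 1.24 TPM (SD, n = 4), overlapped with them. The log2 difference of Lif was 0.65 ± 0.16 (SE) at 3 h and 0.63 ± 0.18 at 24 h (limma adjusted p = 0.105 and 0.803). At 3 h the call appeared after median-ratio scaling (0.58, adjusted p = 0.0433) or without control mouse 3 (adjusted p = 0.0475).

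Osmr in RM-9 tumors measured 2.44, 1.82, 2.24 and 2.43 TPM in control and 3.33, 3.29, 2.62 and 3.62 TPM at 3 h. The groups did not overlap, as for Lif at that time, 2 of the 9 genes beside 9.88% of all genes (log2 difference 0.44 ± 0.13 SE, limma adjusted p = 0.12). Il11 measured 3.46, 5.61, 3.75 and 4.16 TPM at 12 h against 2.39, 3.23, 3.30 and 1.09 in control. It was the only gene of the 9 whose groups did not overlap at 12 h, beside 0.243% of all genes with all RT mice above (log2 difference 0.72 ± 0.24 SE, limma adjusted p = 0.0704, and 0.0449 without control mouse 3). At 24 h Lif and Il11 lay above control without overlap, 2 genes beside 2.01% of all genes, and Il6ra below, 1 gene beside 2.24%. Il6ra measured 5.28, 5.22, 8.19 and 7.5 TPM in control and 3.96, 4.73 and 4.70 TPM at 24 h (log2 difference -0.48 ± 0.20 SE, limma adjusted p = 0.999).

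Il6 in RM-9 tumors was low at every time. It measured 0.503, 0.356, 0.541 and 0.340 TPM in control, 0.294, 0.575, 0.192 and 0.159 TPM at 3 h, 0.433, 0.393, 0.524 and 0.495 TPM at 12 h and 0.494, 0.596 and 0.531 TPM at 24 h. The 4 groups overlapped throughout. Osm measured 1.84, 1.43 and 1.02 TPM at 24 h against 0.973 ± 0.0776 TPM (SD, n = 4) in control, with mouse 3 inside the control range. Stat3 measured 12.5, 21.5, 18.0 and 14.1 TPM at 12 h against 20.5 ± 1.72 TPM in control, and 3 of these 4 mice lay below all control mice (log2 difference -0.32 ± 0.15 SE, limma adjusted p = 0.158). That difference shrank to -0.11 after median-ratio scaling. At the same time 5 of 8 macrophage and 3 of 4 tested T cell markers were lower in RM-9 tumors on TPM and none after median-ratio scaling, and their part was not tested. Socs3 was 18.2 ± 0.734 TPM in control and 18.3 ± 4.95, 15.4 ± 4.48 and 18.3 ± 0.444 TPM at 3, 12 and 24 h.

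The change after RT was then compared between the models in 1 fit of all libraries, with the RM-9 change subtracted from the MC-38 change. At 24 h Il6 and Osm differed, 2 of the 9 genes beside 1.81% of all 15358 genes. Il6 rose by 1.66 ± 0.27 (SE) more on the log2 scale in MC-38 than it changed in RM-9 tumors (limma adjusted p = 0.00124). That difference passed under every alternative, with a lowest value of 1.38 after median-ratio scaling (adjusted p = 0.0104). For Osm the difference was 0.93 ± 0.24 (limma adjusted p = 0.0375), and it was lost after median-ratio scaling (0.65, adjusted p = 0.185), without mitochondrial genes (0.78, adjusted p = 0.0978), with a pseudocount of 0.1 (adjusted p = 0.0830), with the replicate block (adjusted p = 0.0559) and without any of 10 of the 15 mice (adjusted p = 0.0508 to 0.0854).

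Osmr at 24 h came close, at 0.69 ± 0.21 (SE, limma adjusted p = 0.0722), and passed without MC-38 control mouse 3 (adjusted p = 0.0260). Il11, Il6ra and Stat3 differed by 0.81 ± 0.36, 0.80 ± 0.30 and 0.51 ± 0.21 and did not pass (limma adjusted p = 0.190, 0.123 and 0.158). Lif, which lay above control at 24 h without overlap in both models, did not pass (limma adjusted p = 0.562), nor did Il6st and Socs3 (adjusted p = 0.435 and 0.280). At 12 h Il6, Osmr, Il6ra and Stat3 differed, 4 of the 9 genes, all upward, beside 44.9% of all genes, with values of 0.73, 0.66, 0.74 and 0.70 against 0.50 for the median gene. Over all genes 6903 were higher and 72 lower, against 235 and 201 after median-ratio scaling. After median-ratio scaling, and with TPM rescaled without mitochondrial genes, 0 of the 9 genes differed at 12 h (limma). At 3 h none passed by limma, as for 0% of all genes, although 2 of the 9 and 1519 of all genes had an unadjusted p under 0.05. These were Il6 (1.07 ± 0.26 SE, limma adjusted p = 0.282) and Osm (0.64 ± 0.23, adjusted p = 0.383).

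**Figure D3:**
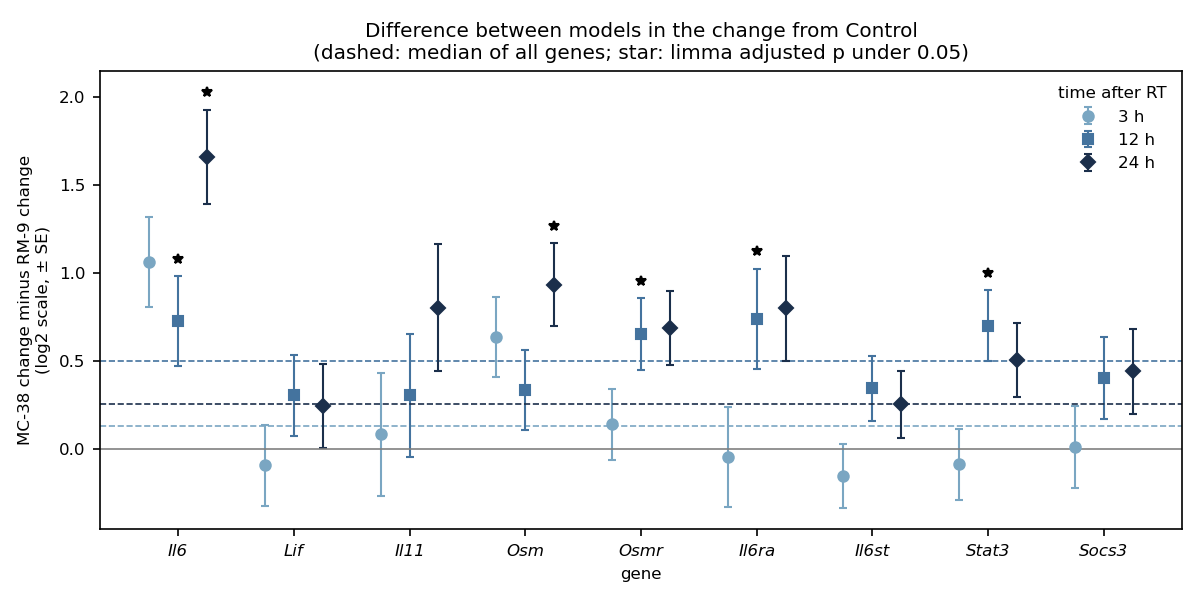
Change from control in MC-38 tumors less the change in RM-9 tumors (vertical axis, log2(TPM + 0.5) scale, ± SE) for the 9 genes (horizontal axis) at 3, 12 and 24 h, with dashed lines at the median of all genes and stars at limma adjusted p under 0.05. Il6 stands at 1.66 at 24 h, above the median gene at 0.25, while the 4 starred values at 12 h lie within 0.24 of their median gene at 0.50.

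Other genes of the pathway were read from lists that were also chosen with earlier results of these data known. Of 19 genes listed as STAT3 targets, 5 rose in MC-38 tumors at 24 h and none fell, beside 13.2% of all genes higher, with a median of 0.42 beside 0.22 for all genes. The 4 of smallest p were Icam1, an adhesion molecule for leukocytes, Pim1, a survival kinase, Junb, an AP-1 subunit, and Bcl3, a partner of NF-kB. Icam1 rose from 10.7 ± 2.03 to 27.6 ± 5.81 TPM (SD, n = 4 each, limma adjusted p = 0.000405) and Pim1 by 0.73 on the log2 scale (adjusted p = 0.00547). Only Icam1 and Pim1 of the 5 passed after median-ratio scaling. At 12 h 1 of the 19, Fosl2, another AP-1 subunit, was higher on TPM (log2 difference 0.63, limma adjusted p = 0.0162), beside 28.5% of all genes. At 3 h none passed by limma in either model. In RM-9 tumors Serpina3n, an acute phase gene, was lower at 12 h (log2 difference -1.54, limma adjusted p = 0.0303). It was 1 of 19, beside 8.37% of all genes called in either direction, and did not pass after median-ratio scaling (adjusted p = 0.125). At 24 h none of the 19 passed by limma in RM-9 tumors, as for 0% of all genes. The change at 24 h differed between the models in 0 of the 19 by limma. Many of these genes are also targets of other factors.

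Among 9 kinases and brakes of the pathway, Cish, Jak2 and Jak1 rose in MC-38 tumors at 24 h, beside 13.2% of all genes. Cish, a feedback inhibitor of STAT5 signalling, went from 1.56 ± 0.282 to 3.34 ± 0.783 TPM (SD, n = 4 each, limma adjusted p = 0.00912). Jak2 went from 15.3 ± 3.02 to 21.7 ± 1.14 TPM (adjusted p = 0.0167) and Jak1 from 49.0 ± 7.05 to 68.5 ± 12.0 TPM (adjusted p = 0.0315), and Jak1 did not pass after median-ratio scaling. At 12 h, when 28.5% of all genes were higher, Jak1, Cish and Ptpn11 were higher and Ptpn6, a phosphatase of blood cells, lower in MC-38 tumors, and of these Ptpn6 alone passed after median-ratio scaling (-1.14, adjusted p = 0.00716). Ptpn6 was also the only one lower in RM-9 tumors at 12 h (log2 difference -0.60, limma adjusted p = 0.0498), a call lost after that scaling (adjusted p = 0.300). In untreated tumors 6 of the 9 were higher and 1 lower in MC-38, beside 64.7% and 10.7% of all genes, or 4 and 3 after median-ratio scaling. Socs1, a feedback inhibitor of interferon signalling, differed most, at 32.1 ± 7.40 TPM in MC-38 and 5.67 ± 1.10 TPM in RM-9 control tumors.

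Of 6 other ligand genes of the family, 5 were tested in MC-38 tumors. Il27, one chain of IL-27, was the 1 of these that rose at 24 h, beside 13.2% of all genes higher. It went from 1.39 ± 0.328 to 4.50 ± 2.24 TPM (SD, n = 4 each, log2 difference 1.30, limma adjusted p = 0.0110). Its partner chain Ebi3 was lower at 12 h (log2 difference -0.85, limma adjusted p = 0.0154), 1 of 5 beside 406 of all 15698 genes lower. Clcf1 was the most abundant of these ligand genes in both models, with a mean of 24.8 TPM in MC-38 and 15.6 TPM in RM-9 control tumors, and Il31 was at 0 in every library. Of 5 other receptor genes, Il11ra1, the receptor chain for IL-11, ranged from 2.26 to 8.79 TPM over the RM-9 mice and from 2.90 to 9.58 TPM over the MC-38 mice. It was the 1 of 3 tested receptor genes lower in MC-38 tumors at 12 h (log2 difference -0.73, limma adjusted p = 0.0241), while its ligand gene Il11 was higher. Lifr, the receptor chain for LIF, was scarce, at 0.375 to 0.843 TPM in RM-9 and 0.686 to 1.84 TPM in MC-38 tumors.

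**Figure D4:**
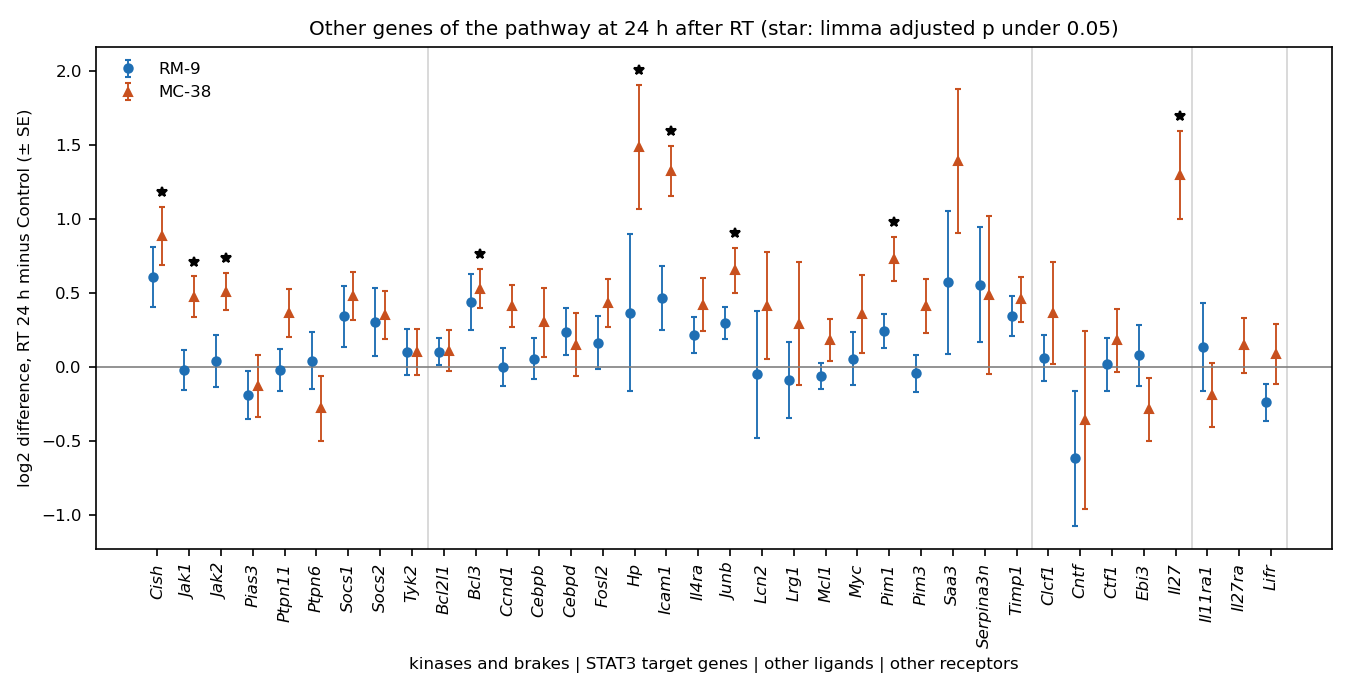
Difference between RT 24 h and control (vertical axis, log2(TPM + 0.5) scale, ± SE) for the other genes of the pathway that were tested (horizontal axis, by list), with RM-9 as circles, MC-38 as triangles and stars at limma adjusted p under 0.05. In MC-38 tumors 5 STAT3 targets, 3 kinases and brakes and Il27 carry a star. In RM-9 tumors none does, as for 0 of all 14014 genes tested. The limma test of the difference between models at 24 h passed for 0 of 19 STAT3 targets and 0 of 9 kinases and brakes. It also passed for 0 of 5 ligand genes and 0 of 3 receptor genes.

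Over the 16 MC-38 libraries, the genes whose log2(TPM + 0.5) followed Il6 most closely were A530040E14Rik, Cxcl11 and Ccrl2, with Pearson r of 0.958, 0.956 and 0.955 among 14234 genes compared. Cxcl11 encodes a chemokine for T cells and Ccrl2 an atypical chemoattractant receptor. For Osmr they were Slc39a1, B4galt5 and Tox4 (r = 0.981, 0.967 and 0.965), and for Socs3 Psen2, Rhov and the chemokine gene Ccl3 (r = 0.902, 0.895 and 0.894). Over the 15 RM-9 libraries they were Fcrlb, Gm22123 and Sdc4 for Il6 (r = 0.824, 0.794 and 0.742), Arhgap23, Plk2 and Susd6 for Osmr (r = 0.962, 0.939 and 0.930), and Mcpt4, Cdc42ep2 and Dock11 for Socs3 (r = 0.923, 0.913 and 0.899). No gene was among the nearest in both models. These values describe libraries that share treatment groups and a scale, and were the highest of many.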

How the data were processed

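Messenger RNA of 31 mouse tumors was sequenced by the authors with a stranded kit, with samples demultiplexed by bcl2fastq 2.17 per the labels. The deposited tables give TPM and FPKM per gene, which the authors scaled per library, and coverage, the deposited mean read depth per base. The aligner and counter are not given in the sources used here. The processing notes name GRCm39, but the positions matched GRCm38, so no GRCm39 coordinate was used. TPM of repeated rows was summed, and depth came from the ratio of coverage to FPKM at 75 bases per read. Reads per gene are approximate, from FPKM and the longest coding transcript. No counts were given, so no counting interval could be computed. Whether mice of a group came from separate cohorts is not stated, and p-values measure the spread between these mice.

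Groups came from the sample titles. The main test was limma 3.58.1 (R 4.3.3; lmFit, eBayes with an intensity trend) on log2(TPM + 0.5), which understates the change of low genes. Benjamini-Hochberg adjustment ran over all genes whose mean TPM reached 0.5, the 9 members added, at a threshold of 0.05. Each model was fitted with its 4 groups, and the comparisons between models used all 31 libraries in 8 groups. Dunnett's comparison on TPM used scipy 1.17.1, and tables and figures Python 3.11.15, numpy 2.4.6, pandas 2.3.3 and matplotlib 3.10.9. The fits were tested on simulated data with 200 genes changed. The members and all gene lists were chosen with earlier results of these data known. One listed ligand gene is not reported here. Named besides the members were, per list and comparison, at most 4 called genes of smallest p, Lifr, Il11ra1, Jak1 and Jak2, and the 3 genes of highest correlation with Il6, Osmr and Socs3 among those with a mean TPM of at least 1. For members a log2 difference on TPM is given only where its unadjusted p was under 0.05. Same-numbered mice did not deviate together (r from -0.39 to 0.32 in RM-9 and -0.48 to 0.55 in MC-38), so the numbers were not taken as pairs. Alternatives comprised other pseudocounts (0.1, 1), scaling by median ratios, TPM without mitochondrially encoded genes, no filter or a mean TPM of at least 5, no intensity trend, a replicate block, only the groups compared, and each mouse left out.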

Additional observations from a re-analysis of the deposited data

Results flagged for a closer look

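The change after RT differed between MC-38 and RM-9 tumors, by the limma test of the difference itself, for Il6 at 24 h (1.66 on the log2 scale, adjusted p = 0.00124) and Osm at 24 h (0.93, adjusted p = 0.0375). The call for Osm was lost after median-ratio scaling, without mitochondrial genes, with a pseudocount of 0.1, with the replicate block and in 10 of 15 fits that left out a mouse. It also differed at 12 h for Il6 (0.73, adjusted p = 0.0254), Osmr (0.66, adjusted p = 0.0136), Il6ra (0.74, adjusted p = 0.0376) and Stat3 (0.70, adjusted p = 0.00938), where the median gene differed by 0.50 and no value passed after median-ratio scaling. In 63 tests of a group of 4 mice for a mouse far from the others, 0 of the 9 genes' groups stood out, and RM-9 RT 24 h, with 3 mice, was not tested.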

How the results depend on the processing

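Counts of the 9 genes that passed changed as follows. Median-ratio scaling gave 1 in RM-9 tumors at 3 h, 1 in MC-38 tumors at 12 h, and 0 and 1 for the difference between models at 12 h and 24 h. TPM without mitochondrial genes gave 3 in MC-38 tumors at 12 h and 0 and 1 for the differences at 12 h and 24 h. With no filter, or only the compared groups, 3 passed in MC-38 tumors at 12 h, and only the compared groups left 5 at 24 h, without Lif and Socs3. A pseudocount of 0.1 left 1 for the difference at 24 h, and that pseudocount or no filter left 3 at 12 h, while a pseudocount of 1 gave 3 at 24 h, with Osmr. Dunnett's comparison on TPM, without adjustment over genes, gave 2 and 1 in RM-9 tumors at 3 h and 24 h and 4 in MC-38 tumors at 3 h and at 12 h, where Il6 was not among them. Leaving out each mouse gave 0 to 1 in RM-9 tumors at 3 h and 12 h, 0 at 24 h, 0 to 2, 2 to 5 and 6 to 7 in MC-38 tumors at 3, 12 and 24 h, 7 to 8 between control tumors, and 0, 2 to 5 and 1 to 3 for the differences at 3, 12 and 24 h. Socs3 between control tumors reversed after median-ratio scaling (-0.017). The replicate block left 1 for the difference at 24 h (Osm 0.95, limma adjusted p = 0.0559) and changed no other call after RT. Between control tumors the block fit did not compare the group means, so its -0.61 for Il11 cannot be read as a lost call. Over the 2 models, 3 of 15 and 4 of 16 mice correlated best with their own number. For single genes with an unadjusted p under 0.05, 378 of 412 values kept their direction and side of the threshold, 31 lost the call, 2 gained it and 1 reversed. Changing the filter, the intensity trend or the groups fitted left the log2 difference as it was. Under those settings only the side of the threshold could change. The 412 values include the block fits between control tumors but not the fits that left out a mouse. Those fits lost further calls, such as Osm between models at 24 h in 10 of 15. Of 42 weaker gene results, 27 changed sign under some alternative, with the fits that left out a mouse included. The causes were not tested. Low levels of Il6 in RM-9 tumors limit what could be detected there, and 3 or 4 mice against 4 cannot give a permutation p below 0.0286.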
